A study of Homo sapiens with 4 samples.

Results

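The chaperone families HSP40, HSP70 and HSP90, with their co-chaperones, comprised 84 of the 20046 genes that the array's annotation names. They were taken by gene symbol: DNAJA, DNAJB, DNAJC, HSPA, HSPB, HSPH1, HSP90, HSPD1, HSPE1 and the numbered BAG genes, plus HSF1 and STIP1. HSF2 and AHSA1 also belonged to the rule but were not analysed here. The prefix HSPB also took in HSPBP1 and HSPBAP1, which are not small heat shock proteins, and the prefix DNAJC took in the readthrough transcript DNAJC25-GNG10. No measured value entered that rule, but the families were chosen with results of this same comparison known, so the counts below describe these genes and support nothing beyond them.

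The cells were of the line H23, established from a human non-small cell lung cancer. The SOX7 group (2 arrays) held H23 cells overexpressing SOX7, a SOXF-class transcription factor, and the control group (2 arrays) held H23 cells expressing green fluorescent protein (GFP) instead. PolyA RNA of near-confluent cells was read on Illumina HumanHT-12 v4 BeadChips, and the design also names H1299 and PC14 cells, which were not analysed here. Because both groups carried an introduced gene, the comparison sets SOX7 against GFP and not against unmodified cells. It is not stated whether separate cultures were used within a group, nor how SOX7 was introduced or for how long, so the p-values may measure technical spread alone.

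Chaperones hold unfolded proteins and help them to fold. HSP70 proteins bind and release short hydrophobic stretches under control of ATP; J-domain proteins (the HSP40 class, DNAJA, DNAJB and DNAJC) bring them substrates and start ATP hydrolysis, while HSP110 and BAG proteins make them let go of ADP. HSP90 proteins take over partly folded clients such as kinases and steroid receptors, handed on from HSP70 by the adaptor STIP1. Small heat shock proteins (HSPB) hold unfolding proteins without ATP, and HSPD1 with its lid HSPE1 folds proteins inside mitochondria. Heat and other proteotoxic stress raise many of these genes together through the transcription factor HSF1, which binds repeats of the unit NGAAN in alternating orientation.

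The deposited values were log2 intensities, and every difference below is SOX7 minus control on that scale. The correlation between arrays over all probes was 0.995 within each group and 0.990 between groups. Of the 84 chaperone genes, 73 had a mean at or above the intensity filter, 6.25, the median of all probe means. SOX7 itself read 6.53 and 6.78 in SOX7 arrays and 6.18 and 6.45 in control arrays, a difference of 0.34 (limma adjusted p = 0.0583). The groups did not overlap, but the gene missed the threshold of 0.05, and both groups lay close to the filter. The keratins KRT8 and KRT18 of simple epithelium were read well above it, KRT18 at 8.99 and 9.04 in SOX7 arrays and at 8.62 and 8.51 in control arrays. EPCAM (mean of all arrays 6.59) and KRT7 (6.35) lay close to the filter, under the fibroblast marker COL1A1 (6.80). KRT19 (5.99) and CDH1 (5.87) lay below the filter. In total 4 of 6 epithelial markers, 0 of 3 lung epithelial markers, 1 of 3 leukocyte markers, 0 of 3 endothelial markers and 2 of 3 fibroblast markers passed the filter, and no leukocyte, endothelial or fibroblast marker exceeded 6.93 on any array.

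Chaperone genes moved in both directions. Of the 73 genes tested, 14 passed the threshold (19.2%), against 18.8% of the 12804 genes tested on the array. Those higher with SOX7 numbered 4 (5.48%, against 8.98% of all genes), and those lower numbered 10 (13.7%, against 9.83% of all genes). SOX7 and control arrays were fully separate for 48 of the 73 (65.8%), against 58.5% of all genes. The median difference was 0.00 both for the chaperone genes and for all genes, and DNAJC25 alone of the 73 changed by more than 1.5-fold. So the share called was close to the background, and what follows concerns which families and which genes lay on which side.

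**Figure D1:**
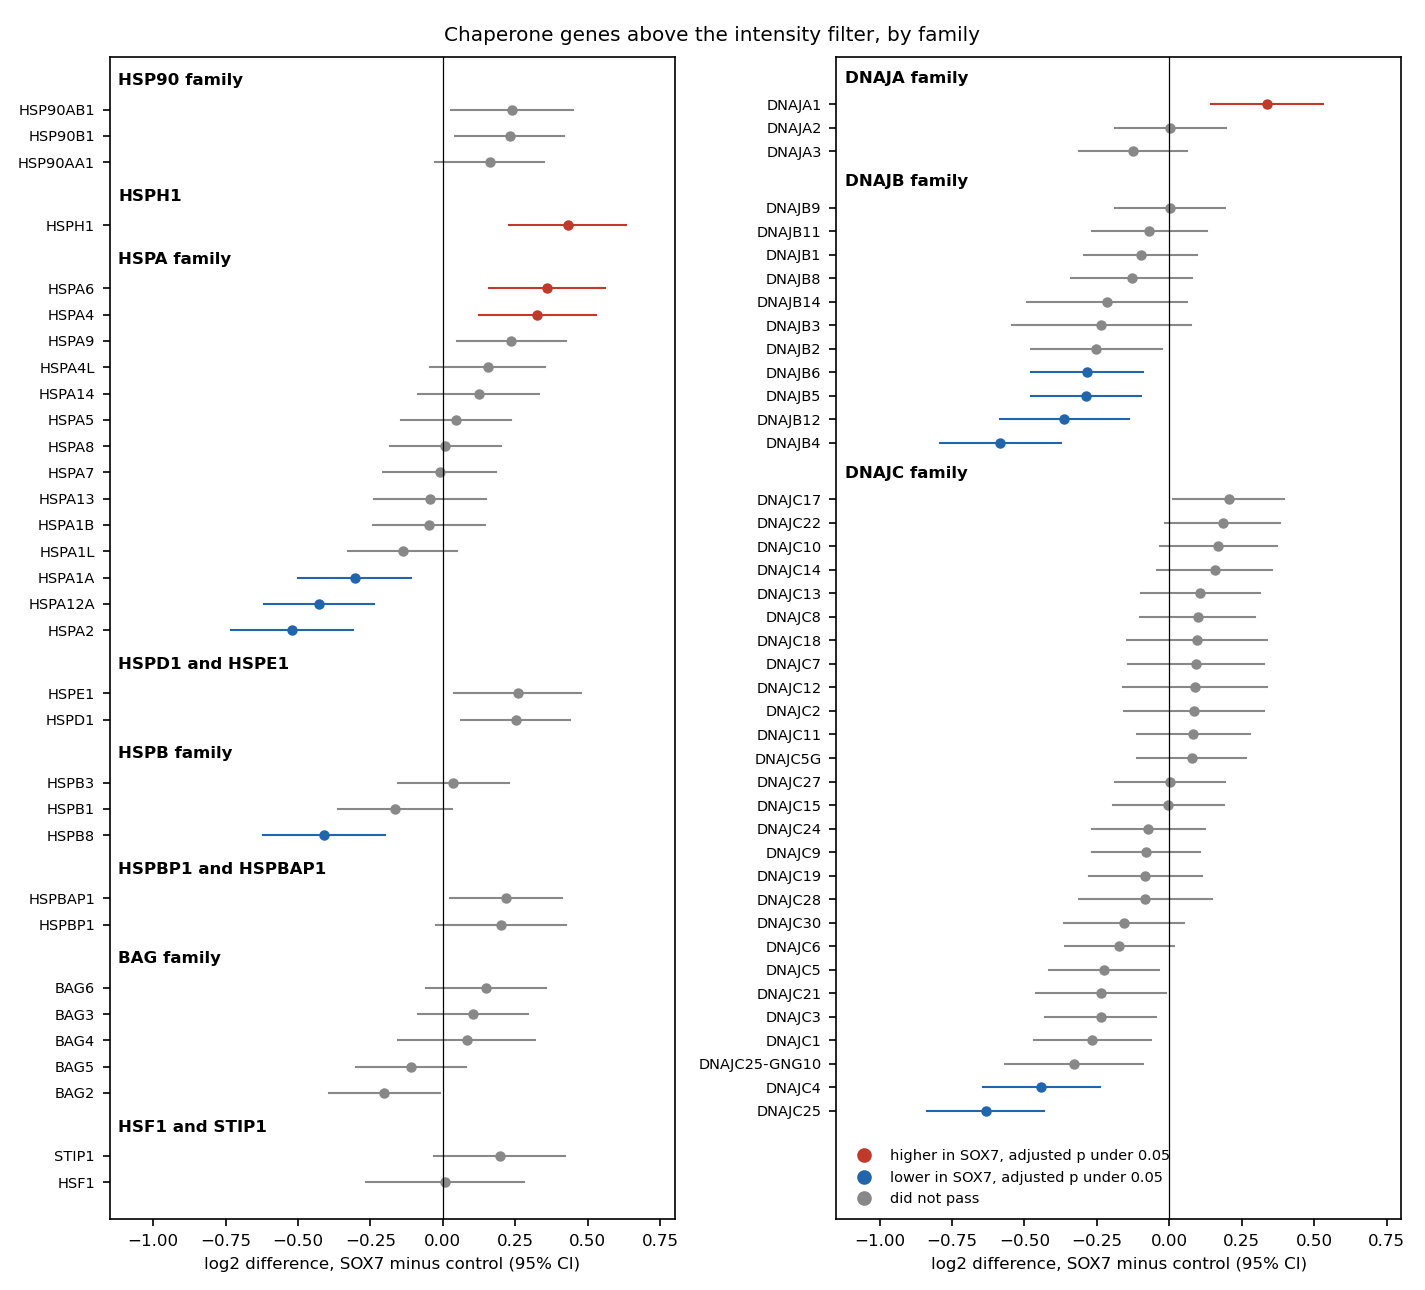
Log2 difference (SOX7 minus control, x axis) of the 73 chaperone genes above the intensity filter, grouped by family, with points for the estimate from 2 SOX7 and 2 control arrays and lines for the 95% confidence interval. The HSP90 genes, HSPD1 and HSPE1 all lie right of 0 without passing, 10 of 11 DNAJB genes lie left of it, and the HSPA family spreads from −0.52 to 0.36. Among the DNAJB genes, DNAJB3 and DNAJB8 were tested only because of their control values.

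The HSP90 genes and their handover partner were read slightly higher in SOX7 arrays, and none passed. HSP90AA1, the stress-inducible cytosolic form, read 14.06 and 14.10 in SOX7 arrays, against 13.90 and 13.94 in control arrays (difference 0.16, adjusted p = 0.224). HSP90AB1, the constitutive cytosolic form, read 12.07 and 12.28 in SOX7 arrays, against 11.95 and 11.93 in control arrays (0.24, adjusted p = 0.11). HSP90B1, the form of the endoplasmic reticulum, read 12.92 and 12.93 in SOX7 arrays, against 12.72 and 12.67 in control arrays (0.23, adjusted p = 0.0845). After removal of the median change of the genes around it on the chromosome (0.14), HSP90B1 stood at 0.09 (adjusted p = 0.55). That neighbouring median was −0.07 for HSP90AA1 and −0.02 for HSP90AB1. In all 3 genes both SOX7 arrays lay above both control arrays. The groups were separate, in either direction, for 58.5% of all genes. With limma's unadjusted p under 0.05 the count would be 2 of 3, where all 12804 genes gave 2009 higher and 2089 lower. HSP90AA1 had 2 further probes above the filter, one with a difference of 0.17 and one of −0.19. STIP1 read 10.86 and 11.01 in SOX7 arrays and 10.62 and 10.86 in control arrays, groups that touched at the second decimal (0.20, adjusted p = 0.22).

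HSP110 proteins, the exchange factors that release ADP from HSP70, supplied 2 of the 4 genes that rose. HSPH1 read 11.37 and 11.51 in SOX7 arrays, against 10.97 and 11.06 in control arrays, a mean of 11.44 ± 0.10 against 11.01 ± 0.06 (SD, n = 2 each). It rose by 0.43 (1.35-fold, limma adjusted p = 0.00687), with no overlap between the groups. HSPA4, another exchange factor of this class, read 9.98 and 9.81 in SOX7 arrays, against 9.59 and 9.55 in control arrays, and rose by 0.33 (adjusted p = 0.0291). Its other probe did not follow, with 8.04 and 8.17 in SOX7 arrays against 8.13 and 8.19 in control arrays, which overlap (−0.06), and with the mean of probes HSPA4 did not pass (0.13, adjusted p = 0.235). HSPA4L, the third HSP110 gene, read 7.11 and 7.26 in SOX7 arrays and 7.02 and 7.03 in control arrays (0.15, adjusted p = 0.272, and 0.10 after removal of the neighbouring genes' median). Without SOX7 replicate 2 HSPH1 no longer passed (0.36, adjusted p = 0.0597), and HSPA4 no longer passed without control replicate 1 (0.35, adjusted p = 0.0521), control replicate 2 (0.31, adjusted p = 0.0892) or SOX7 replicate 1 (0.24, adjusted p = 0.175).

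Within the HSPA family, 2 of the 14 genes tested rose (HSPA4 and HSPA6), which is 14.3% against 8.98% of all genes. Another 3 fell (HSPA2, HSPA12A and HSPA1A), which is 21.4% against 9.83% of all genes. The shares in so small a family were not tested. HSPA2, an HSP70 best known from spermatogenesis, was the furthest down. Its probe read 9.23 and 9.43 in SOX7 arrays, against 9.89 and 9.80 in control arrays, a mean of 9.33 ± 0.14 against 9.85 ± 0.06 (SD, n = 2 each), so that it fell by 0.52 (1.43-fold, adjusted p = 0.00282). A second HSPA2 probe gave nearly the same picture, 9.39 and 9.27 in SOX7 arrays against 9.86 and 9.75 in control arrays, and also passed (−0.47, adjusted p = 0.0043 over probes). In neither probe did the groups overlap.

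HSPA12A, a distant relative of HSP70, read 6.85 and 6.91 in SOX7 arrays, against 7.28 and 7.33 in control arrays, and fell by 0.43 (adjusted p = 0.00503). Its second probe lay near the filter and overlapped between the groups (0.06), and with the mean of the probes the call was lost (−0.11, adjusted p = 0.327). HSPA1A, the main heat-inducible HSP70, read 11.003 and 11.007 in SOX7 arrays, against 11.38 and 11.24 in control arrays. It fell by 0.30 (adjusted p = 0.0341), opposite in sign to HSPH1, HSPA6 and DNAJA1, which heat also induces. It shared its sign with the heat-inducible HSPB1 (−0.17) and DNAJB1 (−0.10), neither of which passed. It was called neither without control replicate 1 (−0.24, adjusted p = 0.19), SOX7 replicate 1 (−0.30, adjusted p = 0.113) or SOX7 replicate 2 (−0.31, adjusted p = 0.111), nor after removal of the neighbouring genes' median (−0.27, adjusted p = 0.0582). HSPA1B, which encodes the same protein from a gene 9795 bases further along chromosome 6, read 11.42 and 11.41 in SOX7 arrays and 11.515 and 11.405 in control arrays, with overlap (−0.05, adjusted p = 0.763). Probes for such near-identical transcripts can read each other's RNA, so the values of the pair are uncertain. HSPA1L, which starts on the opposite strand with 259 bases between it and HSPA1A, read 7.37 on both SOX7 arrays and 7.52 and 7.50 on control arrays (−0.14, adjusted p = 0.294).

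HSPA6, an HSP70 that human cells make almost only under stress, gave a weak signal just above the filter. It read 6.58 and 6.74 in SOX7 arrays, against 6.32 and 6.29 in control arrays, and rose by 0.36 (1.28-fold, adjusted p = 0.018). The groups did not overlap at this probe, but a second HSPA6 probe overlapped and had the opposite sign (−0.08). Without SOX7 replicate 2 that second probe became the brighter one, and the value turned to −0.04 (adjusted p = 0.874). Without control replicate 2 HSPA6 also missed the threshold (0.34, adjusted p = 0.0543), as it did with the mean of probes (0.14, adjusted p = 0.239). HSPA7, a near-identical neighbour of HSPA6 thought to be a pseudogene, read 6.45 and 6.43 in SOX7 arrays and 6.39 and 6.51 in control arrays (−0.01, adjusted p = 0.954).

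Neither constitutive HSPA8 nor HSPA5 passed. HSPA8, the constitutive HSP70 of the cytosol, read 13.815 and 13.752 in SOX7 arrays and 13.736 and 13.815 in control arrays (0.01, adjusted p = 0.965). HSPA5, the HSP70 of the endoplasmic reticulum, read 10.07 and 9.99 in SOX7 arrays and 9.970 and 9.998 in control arrays (0.04, adjusted p = 0.772). The groups overlapped for both genes, and the 95% confidence interval of the difference ran from −0.15 to 0.23 for HSPA5 and from −0.18 to 0.20 for HSPA8. HSPA9, the mitochondrial HSP70, read 12.97 and 12.92 in SOX7 arrays, against 12.70 and 12.71 in control arrays, with no overlap (0.24, adjusted p = 0.0791). HSPA14 (0.12), which works at ribosomes, and HSPA13 (−0.04), of the endoplasmic reticulum, overlapped between the groups.

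The mitochondrial chaperonin pair HSPD1 and HSPE1 is encoded head to head on chromosome 2, with 104 bases between the starts. Those bases are shown because the starts face each other across them and the first probes of both genes differed by the same amount. They are the RefSeq sequence of GRCh38.p14 at chr2:197500275-197500378, plus strand (the HSPE1 strand), in lower case throughout, because the run of 3 NGAAN units searched for below is not in them.
HSPD1 to HSPE1: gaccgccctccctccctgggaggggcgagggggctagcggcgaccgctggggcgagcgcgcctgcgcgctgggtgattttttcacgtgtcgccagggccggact

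HSPD1 read 13.75 and 13.76 in SOX7 arrays, against 13.49 and 13.52 in control arrays (0.25, adjusted p = 0.0617). HSPE1 read 12.34 and 12.37 in SOX7 arrays, against 11.97 and 12.22 in control arrays (0.26, adjusted p = 0.0952). Neither passed, although the groups overlapped in neither gene. Genes around the pair were also higher, with a neighbouring median of 0.15 for each, and after its removal HSPD1 stood at 0.10 (adjusted p = 0.491) and HSPE1 at 0.11 (adjusted p = 0.513). The other probes of the pair disagreed. A second HSPD1 probe read 11.25 and 11.32 in SOX7 arrays, against 11.05 and 10.81 in control arrays, and was higher (0.36, adjusted p = 0.0298 over probes). A second HSPE1 probe read 9.22 and 9.75 in SOX7 arrays, against 10.40 and 10.36 in control arrays, and was lower by the widest margin of any chaperone probe above the filter (−0.89, adjusted p = 0.00085 over probes). HSPE1 thus had a direction that depended on the probe: with the mean of its probes it was −0.32. The genome holds many processed copies of HSPE1, and which transcripts each probe reads was not tested.

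Heat shock elements were looked for in the 250 bases before each RefSeq start, on both strands, as adjoining NGAAN units in alternating orientation (NGAAN, then its reverse complement NTTCN, then NGAAN, or the other way round). An entry existed for 73 of the 84 genes, not the same 73 that passed the filter. A run of 3 units occurred before at least 1 listed start of 6 of these 73 (8.22%: DNAJB6, HSP90AA1, HSP90AB1, HSPA6, HSPA8 and HSPD1), against 148 of 27305 genes (0.542%) in the whole table. Runs of 2 units, which a run of 3 contains, occurred in 28.8% of the chaperone genes and in 13.8% of all genes. Only exact, adjoining units within these bases were counted, and HSPA1A, DNAJB1 and HSPH1 had no run of 3. Elements with inexact or spaced units, or further away, were not looked for. Of the 6 genes with 3 units, HSPA6 rose and DNAJB6 fell, where 18.8% of all genes passed. The other 4 did not pass, and their first probes lay above 0: HSPD1 (0.25), HSP90AB1 (0.24), HSP90AA1 (0.16) and HSPA8 (0.01). Whether the run of 3 units goes with a direction was not tested. Neither the HSPA6 call nor the DNAJB6 call held in every fit. HSPA6 stood at −0.04 without SOX7 replicate 2. DNAJB6 stood at −0.26 after removal of the neighbouring genes' median (limma adjusted p = 0.0606). Upstream sequences of the 2 that passed are shown because each carries a run of 3 units and they were called in opposite directions. On the strand shown, the HSPA6 run begins with NTTCN and the DNAJB6 run with NGAAN. These are the same arrangement of 3 units read from opposite strands, and a link to the direction of change was not tested. Both are 250 bases on the plus strand of GRCh38.p14 (RefSeq), ending at the base before the start, HSPA6 at chr1:161524290-161524539 and DNAJB6 at chr7:157336754-157337003, with the run of 3 units in capitals. It begins 75 bases before the HSPA6 start and 132 bases before the DNAJB6 start.
HSPA6 upstream: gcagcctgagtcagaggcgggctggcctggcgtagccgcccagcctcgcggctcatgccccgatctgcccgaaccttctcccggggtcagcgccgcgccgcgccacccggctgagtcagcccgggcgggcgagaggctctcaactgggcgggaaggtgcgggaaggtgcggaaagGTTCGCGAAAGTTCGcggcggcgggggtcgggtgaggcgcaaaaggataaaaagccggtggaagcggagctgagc
DNAJB6 upstream: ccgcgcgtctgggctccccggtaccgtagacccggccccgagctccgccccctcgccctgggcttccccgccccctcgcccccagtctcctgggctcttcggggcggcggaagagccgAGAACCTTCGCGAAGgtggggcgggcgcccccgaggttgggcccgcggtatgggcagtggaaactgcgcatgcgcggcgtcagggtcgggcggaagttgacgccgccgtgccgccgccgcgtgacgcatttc

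Of the 41 J-domain genes tested, 1 rose (2.44%, against 8.98% of all genes) and 6 fell (14.6%, against 9.83% of all genes). Together 17.1% were called, against 18.8% of all genes, and the difference in shares was not tested. DNAJA1, a cytosolic partner of HSP70 and HSC70, was the one that rose, with 13.40 and 13.52 in SOX7 arrays against 13.12 and 13.13 in control arrays (0.34, 1.26-fold, adjusted p = 0.0207). The groups did not overlap, but the call was lost without control replicate 1 (0.33, adjusted p = 0.0587), control replicate 2 (0.34, adjusted p = 0.0538) or SOX7 replicate 2 (0.28, adjusted p = 0.129), and also after removal of the neighbouring genes' median (0.27, adjusted p = 0.057). DNAJA2, its cytosolic relative, differed by 0.00 with overlapping groups. DNAJA3, the mitochondrial member, read 11.39 and 11.43 in SOX7 arrays and 11.55 and 11.53 in control arrays (−0.13, adjusted p = 0.35).

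In the DNAJB family, 4 of the 11 tested genes fell (DNAJB4, DNAJB12, DNAJB5 and DNAJB6; 36.4%, against 9.83% of all genes). None rose, against 8.98% of all genes. Also at an unadjusted p under 0.05 in limma 0 were higher, where all 12804 genes gave 2009. The share in so small a family was not tested. The median difference was −0.23, and 10 of 11 were below 0, as were 6297 of all 12804 genes. DNAJB3 (mean 6.16 in SOX7 and 6.39 in control arrays) and DNAJB8 (6.21 and 6.34) had SOX7 means below the filter. They were tested only because of their control values, which favours a negative sign. The family median is the value of DNAJB3, whose groups overlapped. Averaged over the 11 probes, the family read 8.34 and 8.40 in SOX7 arrays, against 8.61 and 8.58 in control arrays. DNAJB4, a close relative of the heat-inducible DNAJB1, was the furthest down: it read 7.28 and 7.07 in SOX7 arrays, against 7.78 and 7.73 in control arrays, a mean of 7.17 ± 0.15 against 7.76 ± 0.03 (SD, n = 2 each). It fell by 0.58 (1.498-fold, adjusted p = 0.00131), and a second probe, at 6.73 and 6.60 in SOX7 arrays against 7.04 and 7.05 in control arrays, passed as well (−0.38, adjusted p = 0.0127 over probes). Both probes kept the groups apart.

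DNAJB12, which sits in the membrane of the endoplasmic reticulum with its J domain in the cytosol, read 8.21 and 8.28 in SOX7 arrays, against 8.48 and 8.74 in control arrays (−0.36, adjusted p = 0.0273). Its 3 other probes above the filter did not pass, at −0.11, 0.13 and −0.08, and without control replicate 2 the value was −0.23 (adjusted p = 0.197). DNAJB12 was also lost without SOX7 replicate 1 (−0.33, adjusted p = 0.125) or SOX7 replicate 2 (−0.40, adjusted p = 0.07). DNAJB6, which keeps aggregation-prone proteins soluble, read 10.91 and 11.01 in SOX7 arrays, against 11.25 and 11.23 in control arrays (−0.28, adjusted p = 0.0424). Its second probe showed the same difference (−0.28) and missed the threshold by little (adjusted p = 0.0597 over probes). DNAJB5 read 6.74 and 6.82 in SOX7 arrays, against 7.05 and 7.08 in control arrays (−0.29, adjusted p = 0.039), and its other probe above the filter gave −0.02. Removal of the neighbouring genes' median ended the calls of DNAJB12 (−0.31, adjusted p = 0.0568) and DNAJB6 (−0.26, adjusted p = 0.0606). It moved DNAJB5 (−0.40, limma adjusted p = 0.00857) and DNAJB4 (−0.61, limma adjusted p = 0.00115) further down. The mean of probes ended the calls of DNAJB12 (−0.05, adjusted p = 0.701) and DNAJB5 (−0.02, adjusted p = 0.901). Neither DNAJB5 nor DNAJB6 passed in any of the 4 fits with 1 array left out: values ran from −0.33 to −0.25 for DNAJB5 and from −0.33 to −0.23 for DNAJB6. DNAJB1, the J protein most used by heat-inducible HSP70, read 9.18 and 9.31 in SOX7 arrays and 9.34 on both control arrays (−0.10, adjusted p = 0.493). DNAJB14, the sister of DNAJB12, overlapped between the groups (−0.21), and so did DNAJB11 (−0.07) of the endoplasmic reticulum.

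DNAJC proteins share the J domain and little else, serving tasks from vesicle uncoating to splicing. Of 27 tested, 2 fell (DNAJC25 and DNAJC4), which is 7.41% against 9.83% of all genes, and 0 rose, against 8.98% of all genes. At limma's unadjusted p under 0.05 the count would be 7 lower and 1 higher, where all 12804 genes gave 2089 lower and 2009 higher. DNAJC25, a membrane-bound J protein at chr9:111631334-111654345 (GRCh38.p14), changed most of all 73 genes. It read 8.68 and 8.63 in SOX7 arrays, against 9.21 and 9.37 in control arrays, a mean of 8.65 ± 0.04 against 9.29 ± 0.11 (SD, n = 2 each). It fell by 0.63 (1.55-fold, adjusted p = 0.000588), and the groups were far apart relative to the gap within each. The readthrough transcript DNAJC25-GNG10, which begins at the same start, read 7.24 and 7.12 in SOX7 arrays and 7.67 and 7.36 in control arrays (−0.33, adjusted p = 0.0569); as the transcripts share sequence, the 2 symbols are not independent.

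DNAJC4 read 7.27 and 7.29 in SOX7 arrays, against 7.81 and 7.64 in control arrays, and fell by 0.44 (1.36-fold, adjusted p = 0.00602). Its second probe overlapped between the groups (−0.13). DNAJC30, a mitochondrial J protein, did not pass with its first probe (−0.16), but its second read 6.31 and 6.41 in SOX7 arrays, against 6.74 and 6.69 in control arrays (−0.35, adjusted p = 0.0193 over probes). DNAJC10, a disulfide reductase of the endoplasmic reticulum, behaved alike in the other direction: 0.17 with its first probe (0.02 after removal of the neighbouring genes' median) and 0.30 with its second, which read 7.50 and 7.53 in SOX7 arrays against 7.27 and 7.16 in control arrays (adjusted p = 0.0391 over probes). DNAJC21, which acts in ribosome assembly, read 7.72 and 7.96 in SOX7 arrays, against 8.001 and 8.146 in control arrays (−0.24, adjusted p = 0.137). DNAJC8, found with splicing complexes, overlapped between the groups (0.10).

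**Figure D2:**
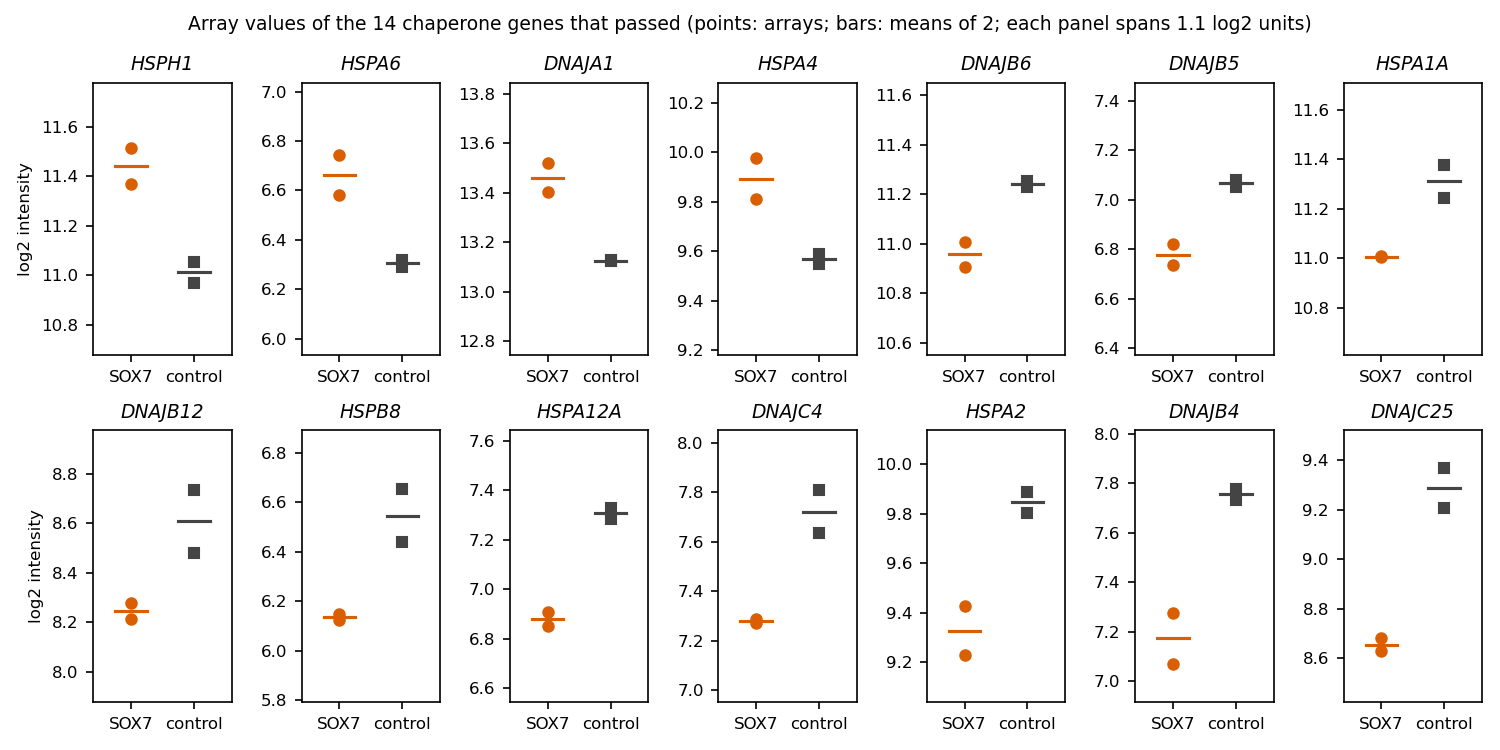
Log2 intensity (y axis) of each array for the 14 chaperone genes that passed the threshold, ordered from the highest to the lowest difference, with points for the 2 SOX7 and the 2 control arrays and bars for the mean of each group; every panel spans 1.1 log2 units. The groups are separate in all 14 panels, HSPH1, HSPA6, DNAJA1 and HSPA4 being higher in SOX7 arrays and the other 10 lower.

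Among the small heat shock proteins, 3 of 7 passed the filter and 1 of these 3 fell, against 9.83% of all genes. HSPB8, which acts with BAG3 in the selective removal of damaged proteins, read 6.15 and 6.12 in SOX7 arrays, against 6.65 and 6.44 in control arrays (−0.41, adjusted p = 0.0116). Both SOX7 values lay below the filter, so the gene was tested only because of its control values. It was under the filter without control replicate 1 and missed the threshold without SOX7 replicate 2 (−0.40, adjusted p = 0.0584). HSPB1, the heat-inducible member most studied in cancer cells, read 13.35 and 13.44 in SOX7 arrays, against 13.51 and 13.61 in control arrays (−0.17, adjusted p = 0.234). HSPB3, a muscle form, overlapped between the groups close to the filter (0.04).

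BAG proteins, which release ADP and substrate from HSP70, did not pass: 0 of 5, against 18.8% of all genes. At an unadjusted p under 0.05 in limma the count was 1 of 5 (BAG2, lower), where all 12804 genes gave 2009 higher and 2089 lower. BAG3, the heat-inducible member, read 12.18 and 12.20 in SOX7 arrays, against 12.12 and 12.05 in control arrays (0.10, adjusted p = 0.45). BAG2, an inhibitor of the ubiquitin ligase STUB1, read 8.01 and 8.06 in SOX7 arrays, against 8.20 and 8.28 in control arrays (−0.20, adjusted p = 0.136). BAG6, which handles tail-anchored membrane proteins, read 8.92 on both SOX7 arrays, against 8.67 and 8.87 on control arrays (0.15, adjusted p = 0.316). BAG5 differed by −0.11 without overlap between the groups. BAG4 differed by 0.08 with one probe and by −0.23 with the other. HSPBP1, a further exchange factor of HSP70 (0.20, adjusted p = 0.203), and HSPBAP1, which binds HSPB1 (0.22, adjusted p = 0.11), did not pass either.

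HSF1, the transcription factor that drives the heat shock response, read 6.67 and 6.89 in SOX7 arrays and 6.96 and 6.58 in control arrays. The groups overlapped fully (0.01, adjusted p = 0.978), and the 2 control arrays lay further apart than the group means. A transcript level does not report HSF1 activity, which is largely set after translation. A heat-inducible list held 15 tested genes: HSPA1A, HSPA1B, HSPA6, HSPA8, HSPA4L, HSPH1, HSPB1, DNAJB1, DNAJA1, HSPD1, HSPE1, HSP90AA1, HSP90AB1, BAG3 and STIP1. It includes HSPA8 and HSP90AB1, described above as constitutive forms, so its counts are not of stress-induced forms alone. Of the 15, 3 rose (HSPH1, HSPA6 and DNAJA1), which is 20% against 8.98% of all genes. Another 1 fell (HSPA1A), which is 6.67% against 9.83% of all genes. The median difference was 0.16, against 0.00 over all genes. In that list 13 of 15 showed no overlap between the groups (86.7%, against 58.5% of all genes). Differences of 11 of the 15 lay above 0, as did those of 6506 of all 12804 genes. No test of the list was made.

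By compartment, the endoplasmic reticulum list held HSPA5, HSPA13, HSP90B1, DNAJB9, DNAJB11, DNAJC1, DNAJC3 and DNAJC10. It left out DNAJB12, which was called lower. In limma 0 of these 8 passed, against 18.8% of all genes, with a median of −0.02. At limma's unadjusted p under 0.05, 1 was higher and 2 were lower, where all 12804 genes gave 2009 higher and 2089 lower. The mitochondrial list held HSPA9, HSPD1, HSPE1, DNAJA3, DNAJC11, DNAJC15, DNAJC19 and DNAJC30. With the first probes 0 of these 8 passed, against 18.8% of all genes, with a median of 0.04. At limma's unadjusted p under 0.05, 3 (HSPA9, HSPD1 and HSPE1) were higher and 0 lower, where all 12804 genes gave 2009 and 2089. The second HSPE1 probe had the opposite sign (−0.89). The neighbouring genes' median was 0.15 for HSPD1, 0.15 for HSPE1 and 0.01 for HSPA9.

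Many of these genes were read by more than 1 probe, which allowed a check within the arrays. For 24 of the tested genes there were 31 further probes above the filter: 20 had the sign of the first probe, 11 the opposite sign, and 6 passed the threshold. The genes that passed had 11 such probes: 2 passed with the same sign (HSPA2 and DNAJB4), and 4 did not pass and had the opposite sign (HSPA4, HSPA6, HSPA12A and DNAJB12). DNAJC25, HSPH1, DNAJA1, HSPA1A and HSPB8 had no second probe above the filter.

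**Figure D3:**
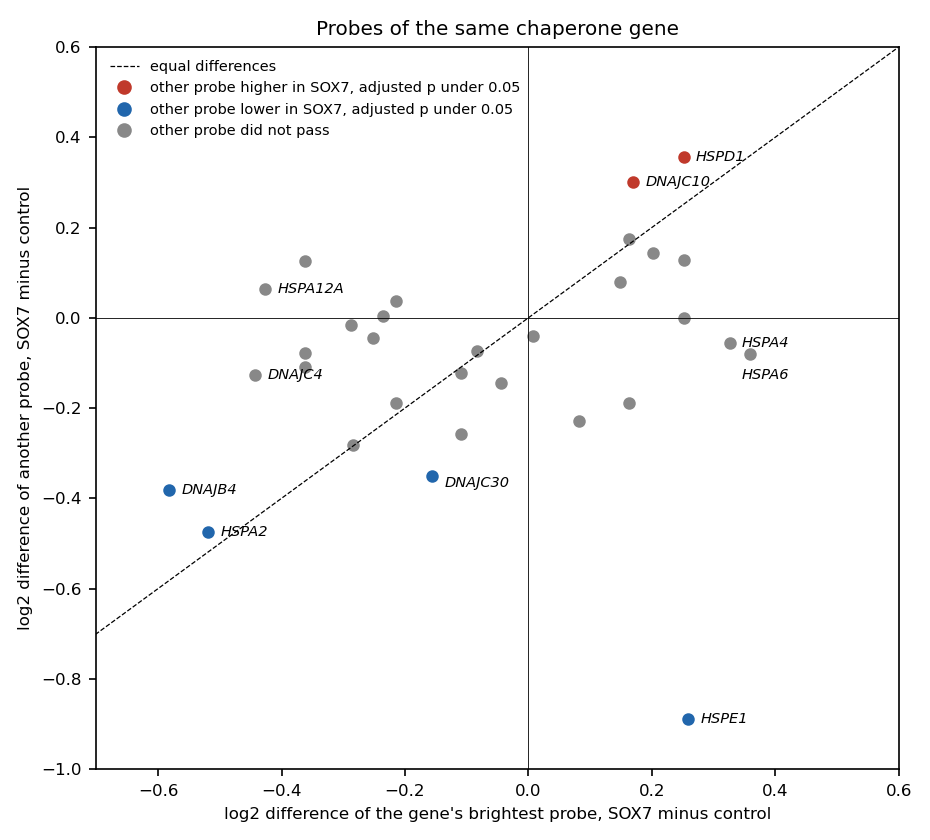
Log2 difference (SOX7 minus control) of each further probe above the filter (y axis, 31 probes) against that of the brightest probe of the same chaperone gene (x axis, 24 genes), with the dashed line marking equal differences. HSPA2 and DNAJB4 lie near the line at the lower left, while HSPE1 stands alone, at 0.26 with one probe and −0.89 with the other.

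A list of 30 other folding genes (partners of HSP70 and HSP90 whose symbols fall outside the rule) had 27 above the filter. In limma 5 of these rose (18.5%, against 8.98% of all genes) and 0 fell (against 9.83% of all genes). At limma's unadjusted p under 0.05 the count would be 7 higher and 2 lower, where all 12804 genes gave 2009 and 2089. The shares in the list were not tested. FKBP4, a prolyl isomerase that serves HSP90 in steroid receptor complexes, read 11.62 and 11.51 in SOX7 arrays, against 10.98 and 11.25 in control arrays (0.45, adjusted p = 0.0112). GRPEL2, the exchange factor that releases ADP from mitochondrial HSP70, read 9.99 and 9.94 in SOX7 arrays, against 9.52 on both control arrays (0.45, adjusted p = 0.00358). CHORDC1, an HSP90 co-chaperone, read 9.03 and 9.24 in SOX7 arrays, against 8.598 and 8.848 in control arrays (0.41, adjusted p = 0.0206). In each of the 3 the SOX7 arrays lay above the control arrays.

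TRAP1, the HSP90 of mitochondria, read 9.75 and 9.64 in SOX7 arrays, against 9.36 and 9.43 in control arrays (0.30, adjusted p = 0.0362). NUDC, a co-chaperone of HSP90 with a further role in nuclear movement, read 13.48 and 13.21 in SOX7 arrays, against 13.01 and 13.04 in control arrays (0.32, adjusted p = 0.0484). Further partners of HSP90 in the list did not pass, with UNC45A at −0.24, STUB1 at −0.20, FKBP5 at −0.05, CDC37 at 0.03 and PTGES3 at 0.20. A second UNC45A probe above the filter had the opposite sign (0.14). These partners were picked after their values were seen. Of the 27 genes, 16 lay above 0 and 11 below, as did 6506 and 6297 of all 12804 genes. The median of the 27 genes was 0.05, against 0.00 over all genes, and the list's 18.5% called stood beside 18.8% of all genes. Of the 5, between 1 and 3 were called when 1 array was left out, the fewest without control replicate 1.

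**Figure D4:**
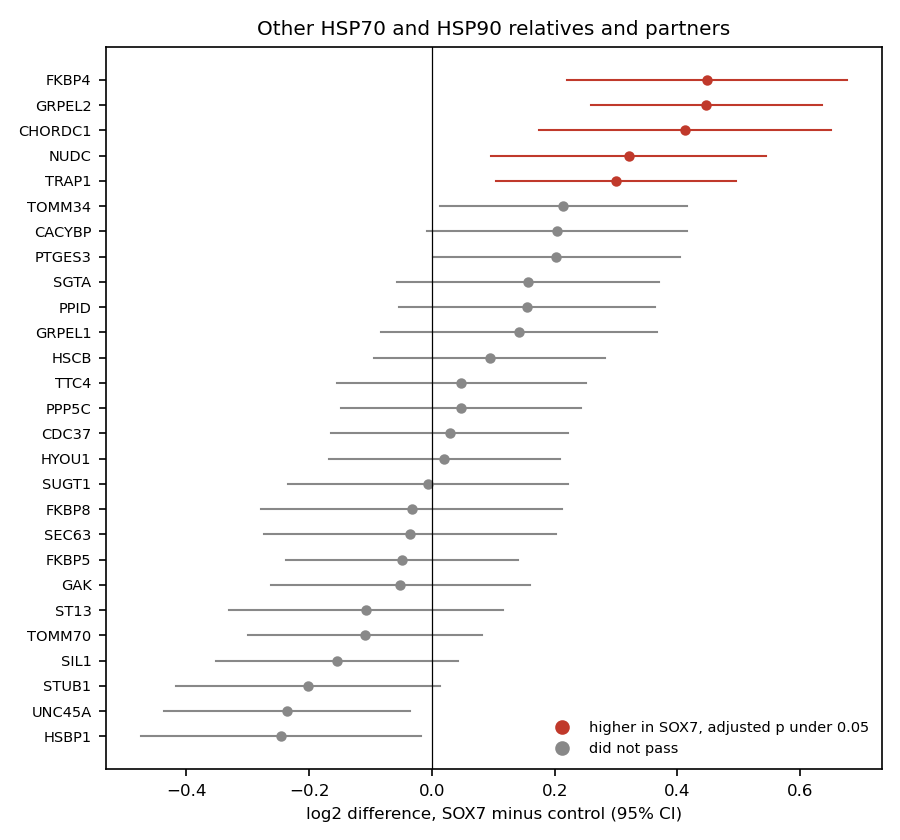
Log2 difference (SOX7 minus control, x axis) of the 27 other folding genes above the intensity filter, in order of the difference, with points for the estimate from 2 SOX7 and 2 control arrays and lines for the 95% confidence interval. FKBP4, GRPEL2, CHORDC1, NUDC and TRAP1 stand at the top with intervals right of 0, and no gene passed on the other side.

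Across all fits, 4 of the 14 genes were called in each one run, all of them lower with SOX7: DNAJC25, DNAJB4, HSPA2 and DNAJC4. With HSPA12A, 5 stayed past the threshold in each of the 4 fits without 1 array, and 0 of the 4 genes that rose did so. Bulk RNA does not tell fewer cells with a transcript from less transcript per cell, and no detection p-values were used, so signals near the filter were not separated from background.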

How the data were processed

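PolyA RNA of 2 SOX7 and 2 control samples of H23 cells was measured on Illumina HumanHT-12 v4 BeadChips. The authors deposited log2 intensities for 48107 probes per array. After sorting, the 4 arrays matched to within 0.000683, as quantile normalization leaves them. The software, like any background correction, was not given in the sources used here.

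Of the probes, 30113 carried 1 gene in the platform's annotation, 8 several and 17986 none. For each of 20046 genes the brightest probe by mean was kept, and genes under the median of probe means were left out, leaving 12804. SOX7 and control were compared with limma 3.58.1 (R 4.3.3, moderated degrees of freedom 11.7), two-sided, at 0.05 after Benjamini-Hochberg adjustment across the genes tested; values marked "over probes" come from the same fit on all 17100 probes with 1 gene above the filter. The code was tested on simulated data. The number of arrays limits the precision.

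Named are the genes that passed, all tested HSPA, HSPH, HSP90, HSPD, HSPE and HSF members and STIP1, the brightest and the 3 lowest p-values of each other family, and genes whose probes disagreed. DNAJB1, HSPBP1, HSPBAP1 and 5 HSP90 partners that did not pass were added after their values were seen. The members, the heat-inducible, compartment and other folding lists and the tests were chosen with earlier results of these data known. Alternatives covered the filter, an offset of 16, the probe summary, the variance prior, normalization, threshold, replicate block, the median change of 101 neighbouring genes, and leaving out each array. Promoters came from RefSeq GRCh38.p14.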

Additional observations from a re-analysis of the deposited data

How the results depend on the processing

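Chaperone genes called higher (4 as reported) numbered 7 with a filter at the 75th percentile, 2 with the mean of a gene's probes, 9 with a trend and robust prior, 8 at a threshold of 0.10, 1 at 0.01, and 1 to 3 without 1 array. Those called lower (10 as reported) numbered 6 with no intensity filter, 5 at a threshold of 0.01, and 5 to 9 without 1 array. Other folding genes called higher (5) numbered 3 with no filter, 1 at a threshold of 0.01 and 1 to 3 without 1 array; those called lower (0) numbered 1 with the filter at the 75th percentile, 2 with the trend and robust prior, 1 at a threshold of 0.10, and 0 to 1 without 1 array. Over all 12804 genes, 1150 were higher as reported, 1422 with the trend and robust prior, 1621 at 0.10 and 567 at 0.01. At the 75th percentile 1258 of 7918 genes were higher, beside 7 of 54 chaperone genes. With the mean of probes 1094 of 11897 were higher, beside 2 of 70. Lower genes numbered 1258 as reported, 932 with no filter and 657 at 0.01. The cause of the moves in the lists was not tested. A threshold counts more or fewer genes by construction. Leaving out an array leaves 1 sample in its group, assumed to vary like the other group. With the replicate block the chaperone counts were 4 higher and 11 lower, and those of the other folding genes 5 and 0; same-numbered arrays did not deviate together (correlation −0.02), so the numbers are not taken to pair the samples. Over all genes, no filter gave 1775 calls of 20046, the 75th percentile 2642 of 7918, a threshold of 0.01 gave 1224, and leaving out SOX7 replicate 1 or SOX7 replicate 2 gave 1567 and 1529.

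Across the named genes, 701 of the alternative values stayed on the same side of the threshold with the same sign, 64 lost a call, 23 gained one and 18 changed sign. Signs changed with the mean of probes in BAG4 (−0.0736), HSPA8 (−0.0159) and HSPE1 (−0.3154), and after removal of the neighbouring genes' median in HSPA13 (0.0164), HSPA8 (−0.0104) and HSPB3 (−0.0717). In the fits without 1 array values ran from −0.0778 to 0.2415 for BAG4 (negative without control replicate 2), from −0.0355 to 0.0428 for DNAJA2 (negative without control replicate 2 or SOX7 replicate 1), from −0.141 to 0.0034 for DNAJB11 (positive without SOX7 replicate 2) and from −0.1838 to 0.1989 for HSF1 (negative without control replicate 2 or SOX7 replicate 2). They ran from −0.1026 to 0.0075 for HSPA1B (positive without control replicate 1), from −0.0394 to 0.4391 for HSPA6 (negative without SOX7 replicate 2), from −0.0717 to 0.0505 for HSPA7 (positive without control replicate 2), from −0.0317 to 0.0475 for HSPA8 (negative without control replicate 1 or SOX7 replicate 1) and from −0.0049 to 0.0769 for HSPB3 (negative without control replicate 1). All but HSPA6 were uncalled as reported. With no intensity filter DNAJB12 (adjusted p = 0.0587), DNAJB5 (0.0847), DNAJB6 (0.0915), HSPA1A (0.0749), HSPA4 (0.0643), NUDC (0.0972) and TRAP1 (0.0788) were no longer called, at the same differences with more genes tested. DNAJB5 was also lost with the trend and robust prior (0.0502), and NUDC with every probe on its own (0.0527). With 2 arrays a group, differences under about the spread between replicates (SD of the difference 0.15 in each group) could not be read.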

Other observations

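The 11 chaperone genes under the filter were BAG1, DNAJA4, DNAJB13, DNAJB7, DNAJC16, DNAJC5B, HSPA12B, HSPB2, HSPB6, HSPB7 and HSPB9, several of them known from muscle, testis or neurons. DNAJA4 read 6.32 and 6.10 in SOX7 arrays and 5.87 and 5.92 in control arrays, and BAG1 read 6.07 and 5.95 in SOX7 arrays and 5.999 and 6.083 in control arrays. Both stayed near the filter of 6.25 and were not tested. DNAJC28 had 1 probe at 12.57 and 12.39 in SOX7 arrays and 12.45 and 12.68 in control arrays, while its 3 other probes lay between 5.88 and 6.50 on every array; which transcripts the bright probe reads was not tested.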
